A study of Mus musculus with 6 samples.

Results

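The 35 genes described here form the unfolded protein response and the integrated stress response as read at the transcript level, in mouse long-term haematopoietic stem cells (LT-HSC) with and without Prdm16. They were taken by name from the 27179 genes of the expression table, in 4 arms. These arms were 15 chaperones and folding enzymes of the endoplasmic reticulum (ER), 7 genes of ER-associated degradation, 4 genes of stress sensing (the 3 sensors and Xbp1), and 9 genes of the Atf4 axis. All 35 were found in the table, and 34 were expressed highly enough to be tested. The exception was Chac1, with 9 reads in control replicate 3 and no read in the other 5 libraries.

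Both groups were adult C57BL/6 mice, 8 to 12 weeks old, homozygous for a conditional Prdm16 allele, and both received 5 injections of pIpC, the double-stranded RNA analogue that induces interferon. The control mice (Prdm16-Mx1-Cko/Cko; +/+) lacked the Mx1-Cre transgene, whereas the knockout mice (Prdm16-Mx1-Cko/Cko; Tg/+) carried 1 copy. The interferon-inducible Mx1 promoter drives Cre in many cell types, so deletion was not limited to stem cells. At 5 weeks after pIpC, cells with the surface phenotype Lin- Sca-1+ c-Kit+ CD48- CD150+ were sorted from the pooled marrow of 5 mice per genotype into 3 technical replicates. The 3 libraries of a group therefore share their animals, and every p-value below measures the spread between portions of 1 pool, not between mice.

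The ER folds secreted and membrane proteins, and its chaperones hold unfolded chains until they mature or are sent for degradation. When unfolded proteins accumulate, Ire1 (encoded by Ern1) splices Xbp1 mRNA, Atf6 is cleaved into a transcription factor, and Perk (encoded by Eif2ak3) phosphorylates eIF2-alpha. Phosphorylation of eIF2-alpha, which other kinases also carry out in the integrated stress response, lowers general translation while favouring translation of Atf4. The protein encoded by Ppp1r15a, known as Gadd34, brings a phosphatase to eIF2-alpha and ends the response. Haematopoietic stem cells are known for a low rate of protein synthesis and for sensitivity to disturbed protein folding. Transcript totals do not separate spliced from unspliced Xbp1, and they measure neither eIF2-alpha phosphorylation nor Atf4 protein.

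Transcription factors of this response read short promoter elements, and the 250 bases before the annotated start were searched for 5 of them on both strands. The elements were the ER stress response element (ERSE, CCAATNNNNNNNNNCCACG), which NF-Y and Atf6 occupy together, the related ERSE-II (ATTGGNCCACG), a core of the unfolded protein response element (UPRE, TGACGTG), and 2 forms of the C/EBP-ATF element bound by Atf4 (CARE, TGATGNAAT, and the form TTGCATCA). A window was held for 30 of the 35 genes. These genes had 32 windows, and not every window ended at the outer start of its gene. That of Edem1 began at 108828391, inside a gene that starts at 108824045. That of Eif2ak3 ended at 70844514, past the gene start of 70844484. Neither of them held an element. Hspa5 is shown as the chaperone that rose and Hsp90b1 as the gene with 2 ERSE matches, and Ppp1r15a and Atf4 as genes of the other arm whose windows held none of the 5 elements. The sequences run 5′ to 3′ on the strand of the gene (RefSeq, GRCm38.p6), and capitals mark the UPRE and ERSE of Hspa5 and the ERSE matches of Hsp90b1.
Hspa5, chr2:34771840-34772089, plus strand: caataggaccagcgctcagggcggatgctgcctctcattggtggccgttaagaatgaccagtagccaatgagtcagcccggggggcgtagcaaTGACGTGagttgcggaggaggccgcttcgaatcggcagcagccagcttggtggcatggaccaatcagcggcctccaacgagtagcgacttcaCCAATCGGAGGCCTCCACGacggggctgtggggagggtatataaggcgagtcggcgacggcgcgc
Hsp90b1, chr10:86705445-86705694, minus strand: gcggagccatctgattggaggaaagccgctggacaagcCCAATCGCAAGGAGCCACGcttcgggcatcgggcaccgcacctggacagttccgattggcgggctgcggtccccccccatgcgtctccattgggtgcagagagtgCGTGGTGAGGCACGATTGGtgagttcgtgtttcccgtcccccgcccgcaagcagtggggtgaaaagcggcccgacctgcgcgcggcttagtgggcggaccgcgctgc
Ppp1r15a, chr7:45526269-45526518, minus strand: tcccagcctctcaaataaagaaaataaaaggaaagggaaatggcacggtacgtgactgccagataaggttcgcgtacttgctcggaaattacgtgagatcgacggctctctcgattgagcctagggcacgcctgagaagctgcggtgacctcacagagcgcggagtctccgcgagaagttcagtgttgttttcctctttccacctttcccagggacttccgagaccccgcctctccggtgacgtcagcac
Atf4, chr15:80254934-80255183, plus strand: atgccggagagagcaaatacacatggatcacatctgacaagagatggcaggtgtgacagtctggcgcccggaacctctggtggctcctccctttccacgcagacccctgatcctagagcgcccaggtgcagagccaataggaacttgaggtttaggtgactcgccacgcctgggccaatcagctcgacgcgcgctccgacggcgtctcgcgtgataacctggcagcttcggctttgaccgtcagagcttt

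The ERSE was found in 9 of the 30 genes (30.0%), against 19 of the 10119 tested genes with a window (0.188%), and the 19 include these 9. It was in 7 of 13 chaperones (53.8%) and 2 of 6 degradation genes (33.3%), and in none of 3 sensor genes or 8 genes of the Atf4 axis. The matches, in chaperone and degradation genes, are set out below. They share the fixed bases because those were searched for, and only the bases between them were free to differ. Capitals mark the fixed bases, and a match that starts with CGTGG lies on the opposite strand.
Hspa5, 47 to 65 bases before the start: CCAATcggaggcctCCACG
Hsp90b1, 194 to 212 bases before: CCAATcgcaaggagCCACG
Hsp90b1, 89 to 107 bases before: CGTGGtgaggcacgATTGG
Canx, 127 to 145 bases before: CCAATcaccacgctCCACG
Pdia6, 80 to 98 bases before: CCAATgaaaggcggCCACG
Dnajc3, 87 to 105 bases before: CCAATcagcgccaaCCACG
Creld2, 108 to 126 bases before: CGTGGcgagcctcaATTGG
Calr, 144 to 162 bases before: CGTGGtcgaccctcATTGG
Syvn1, 26 to 44 bases before: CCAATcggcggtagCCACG
Derl3, 138 to 156 bases before: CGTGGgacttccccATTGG

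Each of the other elements was found in 3 genes or fewer. Herpud1, an ER membrane protein of the degradation machinery, held the single ERSE-II (ATTGGgCCACG, 42 to 52 bases before its start), an element found in 0.0593% of all tested genes with a window. Hspa5 held the single UPRE, 151 to 157 bases before its start, an element found in 2.76% of all tested genes with a window. Nupr1 held the single TGATGNAAT match, 103 to 111 bases before its start, and this element was in 0.474% of all tested genes with a window. TTGCATCA was found in Chac1, Herpud1 and Nupr1 (3 of the 30) and in 0.603% of all tested genes with a window, and in Nupr1 it lies within the TGATGNAAT match. A match is a run of letters and was not examined for binding.

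**Figure D1:**
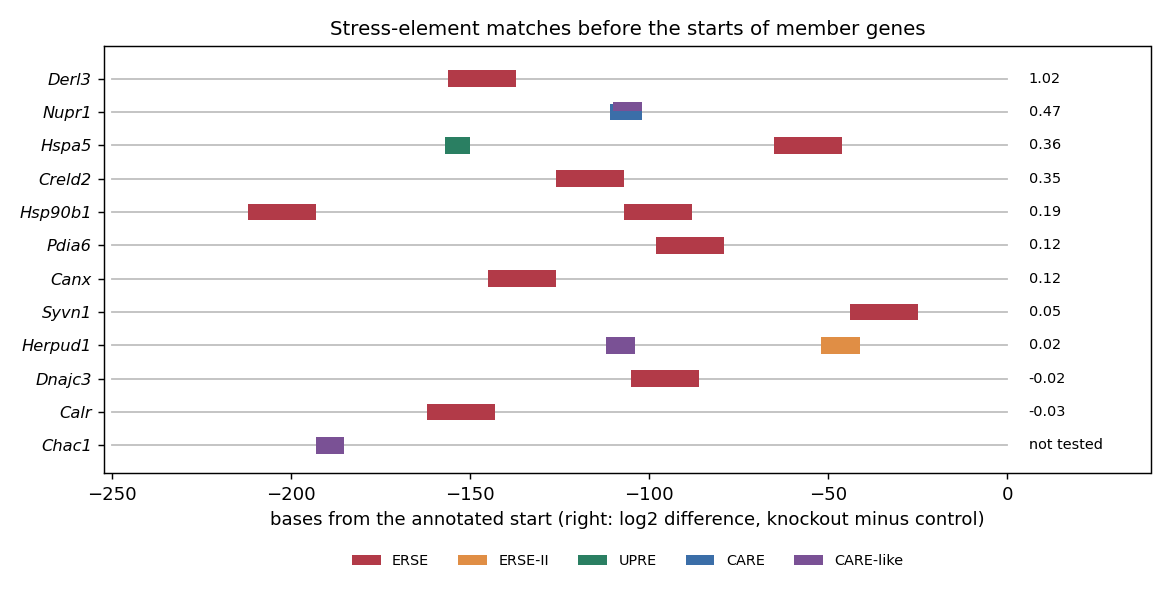
Position of each element match (coloured bars) in the 250 bases before the annotated start of the 12 member genes that hold one, with the log2 difference of the gene, knockout minus control, at the right. The ERSE matches lie 26 to 212 bases before the start, and genes that hold one differ by between -0.03 (Calr) and 1.02 (Derl3).

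Libraries held 36747729 to 43743795 reads assigned to genes, but libraries of the same pool differed by far more than read counting alone would give. Prdm16 measured 31.7 to 50.5 CPM (the reads of a gene scaled to the library size implied by the authors' values) in control libraries and 8.74 to 14.7 CPM in knockout libraries, a log2 difference of -1.93 (SE 0.27, limma adjusted p = 0.00829). All 12 LT-HSC markers were detected in both groups, at a summed 2614.5 to 2816.1 CPM in control and 2643.2 to 2878.9 CPM in knockout libraries, and none passed the test. Kit, the largest part of that sum, had means of 976.6 and 866.6 CPM. By log2 difference 9 of the 12 were higher in knockout and 3 lower. At an unadjusted limma p under 0.05, 25.0% were higher and 0.0% lower, against 5.58% and 4.72% of all tested genes. Groups did not overlap for 33.3%, all higher in knockout, against 8.52% of all tested genes. Many genes that mark other blood cells, though not all, were higher in the knockout pool. Summed neutrophil markers were 306.0 to 322.1 CPM in control and 1102.5 to 1302.6 CPM in knockout libraries, and 9 of 13 tested rose, with Mmp8 at 0 reads in control libraries. Summed eosinophil markers were 0.597 to 5.02 against 519.1 to 617.8 CPM (5 of 7 rose), macrophage and monocyte markers 18.5 to 39.7 against 90.4 to 122.7 CPM (1 of 7), and mast cell and basophil markers 479.0 to 571.5 against 621.0 to 699.5 CPM (2 of 6). Summed megakaryocyte markers were 887.0 to 953.8 against 1216.8 to 1364.5 CPM (1 of 6 rose), and stromal and endothelial markers 107.0 to 124.5 against 119.6 to 142.2 CPM (1 of 7). No marker passed among erythroid genes (57.5 to 79.7 against 99.1 to 104.7 CPM) or T and NK cell genes (75.1 to 90.0 against 93.7 to 116.0 CPM). Several control sums came mostly from 1 gene that did not pass. Control and knockout means were 420.9 and 438.1 CPM for Gata2 (mast cell and basophil list) and 209.2 and 211.0 CPM for Prtn3 (neutrophil list). They were 82.7 and 95.8 CPM for Nkg7 (T and NK cell list) and 16.1 and 15.0 CPM for Cd68 (macrophage and monocyte list).

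Plasma and B cell genes are given apart because secretory cells express ER chaperones at high levels. Their summed level was 66.6 to 73.5 CPM in control and 241.1 to 259.4 CPM in knockout libraries. Most of the control sum was Cd79b, which was lower in each knockout library and did not pass (means of 61.0 and 45.6 CPM). Of 14 markers, 8 were tested and 1, Igkc, rose, from 0 reads in the control libraries to 116.4, 124.3 and 114.3 CPM. Ms4a1, Pax5, Ebf1 and Tnfrsf17 also had 0 reads in control libraries, and Mzb1 stayed under 1 CPM in all 6 libraries. Jchain measured 1.09, 0 and 0.963 CPM in control and 41.3, 27.4 and 32.5 CPM in knockout libraries (limma adjusted p = 0.0628). The part that other cell types had in the results below was not tested, and in bulk libraries fewer cells of a type and less RNA per cell cannot be told apart.

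Among the 34 tested genes, 1 rose (Hspa5, an ER chaperone) and 1 fell (Ppp1r15a, the eIF2-alpha phosphatase subunit). The call was a Benjamini-Hochberg adjusted p under 0.05 from limma, fitted over all 13018 tested genes on the log2 values. Over all tested genes the same rule called 53 higher (0.407%) and 38 lower (0.292%). Ranked by p-value among all tested genes, Ppp1r15a was number 38 and Hspa5 number 47. At an unadjusted p under 0.05, 4 members were higher (11.8%, Hspa5, Hsp90b1, Sdf2l1 and Xbp1) and 3 lower (8.82%, Ppp1r15a, Atf4 and Ern1), against 5.58% and 4.72% of all tested genes. The groups did not overlap for 6 members higher in knockout (17.6%) and 4 lower (11.8%), against 8.52% and 8.01% of all tested genes.

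The median log2 difference, knockout minus control, of the 34 was 0.10, against 0.00 over all tested genes, and 64.7% were above zero against 50.5%. Chaperones had a median of 0.12 with 10 of 15 above zero, and the 7 degradation genes had a median of 0.09 with all 7 above zero. By library, the median deviation of the degradation genes from their own means overlapped between groups. It was -0.159, -0.039 and 0.049 in control and 0.288, 0.036 and 0.046 in knockout libraries. Sensors and Xbp1 had a median of -0.04 with 1 of 4 above zero. The Atf4 axis had a median of 0.11 with 4 of 8 above zero. That median was -0.03 with a minimum of 5 CPM and with no minimum, and -0.06 to -0.01 when a knockout library was left out. The plot of differences by arm shows most intervals crossing zero.

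**Figure D2:**
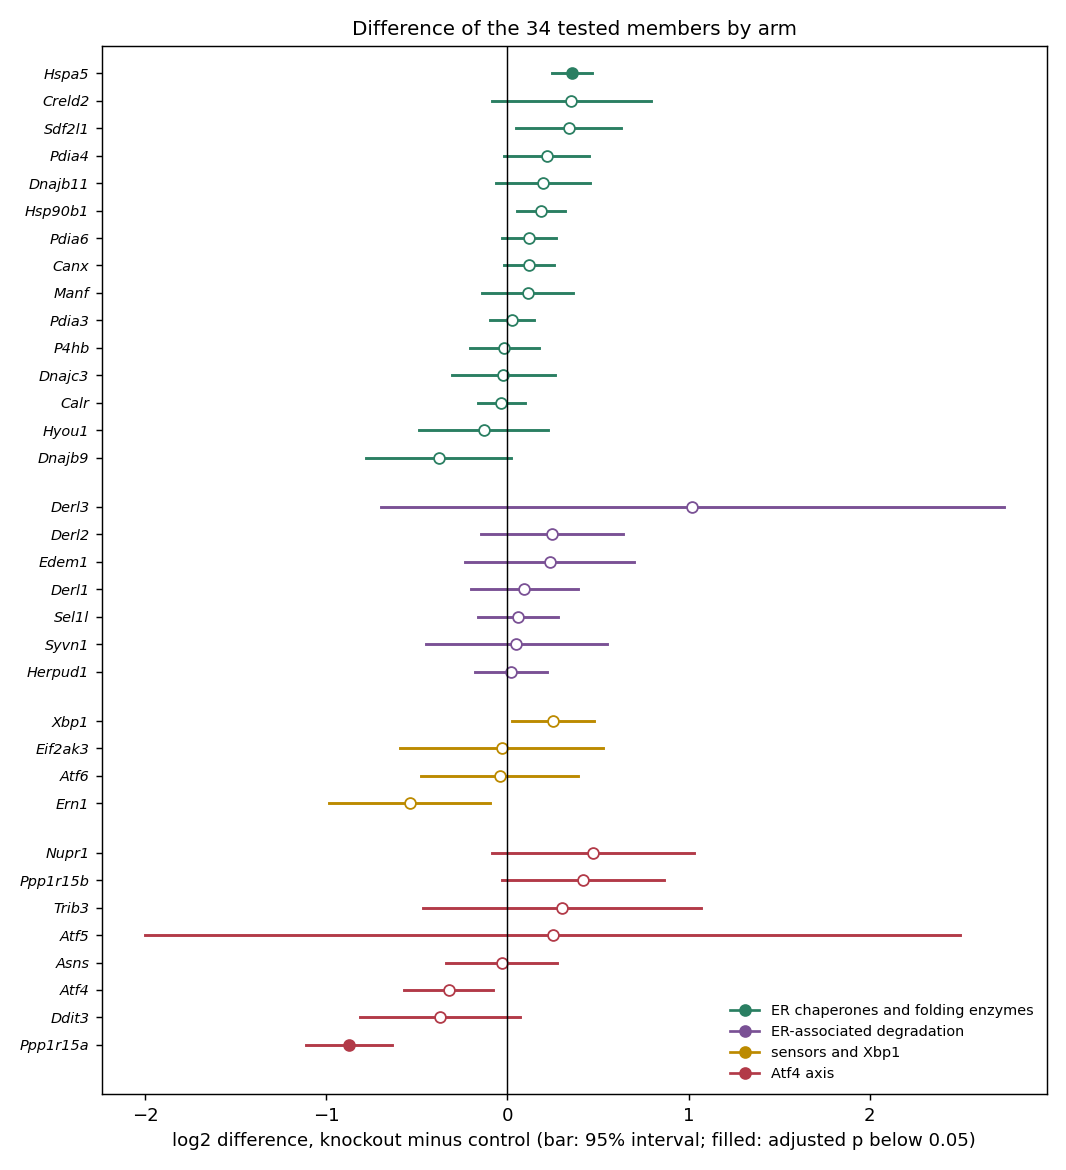
Log2 difference, knockout minus control, of each of the 34 tested genes (circle) with its 95% interval from limma (bar), coloured by arm, with filled circles for adjusted p under 0.05. The filled circles are Hspa5 at 0.36 and Ppp1r15a at -0.87, and the widest interval is that of Atf5, a gene of about 1 CPM.

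Hspa5, also called BiP or Grp78, is the main Hsp70 chaperone of the ER and keeps the 3 sensors silent while it is bound to them. It measured 931.3, 868.3 and 868.1 CPM in the control libraries and 1126.2, 1134.9 and 1153.0 CPM in the knockout libraries. Every knockout library was above every control library, and the spread within each group was small beside the gap (889.2 ± 36.4 against 1138.1 ± 13.7 CPM, SD, n = 3 each). The log2 difference was 0.36 (SE 0.05, 95% interval 0.25 to 0.47, limma adjusted p = 0.00776), which is 28.0% more. The gene (NCBI Gene 14828) lies on chromosome 2 from 34772090 to 34776529 in GRCm38.p6, and the promoter printed above ends just before its first base. It missed the threshold when the variance was modelled without a trend on expression (adjusted p = 0.345), without control replicate 2 (0.0535) and without knockout replicate 3 (0.0586). Rabepk, which overlaps Hspa5 by 1921 bases, measured 85.9 ± 15.4 and 81.1 ± 13.0 CPM (SD, n = 3 each).

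The 3 other chaperones that were higher in every knockout library had smaller differences than Hspa5. Hsp90b1, the ER Hsp90 known as Grp94, measured 631.3, 627.7 and 684.6 CPM in control and 707.4, 750.7 and 753.1 CPM in knockout libraries. All 3 knockout libraries were higher, but the log2 difference of 0.19 (SE 0.06) did not pass (limma adjusted p = 0.29). Canx, the membrane-bound lectin calnexin that holds glycoproteins for folding, measured 684.9, 645.0 and 641.7 CPM against 690.5, 690.0 and 762.9 CPM. The lowest knockout library was barely above the highest control library, and the log2 difference was 0.12 (SE 0.06, limma adjusted p = 0.55). Sdf2l1, a partner of BiP, measured 79.0, 88.7 and 81.6 CPM against 116.2, 111.0 and 89.6 CPM. Knockout replicate 3 was close to the control range, and the log2 difference was 0.34 (SE 0.13, limma adjusted p = 0.398).

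Dnajb9, an ER J-domain protein that helps BiP repress Ire1, was lower in each knockout library. It measured 41.3, 49.7 and 34.7 CPM in control and 29.5, 33.7 and 32.6 CPM in knockout libraries. The groups were apart by little, and the log2 difference of -0.38 (SE 0.18) did not pass (limma adjusted p = 0.505).

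The remaining 10 chaperones overlapped between groups and had adjusted p-values of 0.522 or more. Pdia4, a disulfide isomerase, measured 206.8, 210.3 and 204.7 CPM in control and 261.1, 204.1 and 261.6 CPM in knockout libraries. Knockout replicate 2 was below all 3 controls while the other knockout libraries were well above them (log2 difference 0.22, SE 0.11, limma adjusted p = 0.522). Creld2, which has disulfide isomerase activity, had a log2 difference of 0.35 (SE 0.20) but varied widely, from 45.5 to 73.3 CPM in control and 68.2 to 93.4 CPM in knockout libraries. Dnajb11 (a BiP co-chaperone), Pdia6 (a disulfide isomerase) and Manf (a secreted ER protein that binds BiP) had log2 differences of 0.20, 0.12 and 0.11. Pdia3, Calr, P4hb, Dnajc3 and Hyou1 lay between -0.13 and 0.02.

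Of those 5, the most abundant were measured tightly. Calr, the soluble lectin calreticulin, measured 552.4 ± 19.8 CPM in control and 539.7 ± 11.2 CPM in knockout libraries (SD, n = 3 each), with a 95% interval of the log2 difference from -0.16 to 0.10. Pdia3, the disulfide isomerase that works with calnexin and calreticulin, measured 895.6 ± 21.5 and 911.7 ± 46.0 CPM, with an interval from -0.10 to 0.15. P4hb, a disulfide isomerase that is also a subunit of collagen prolyl hydroxylase, measured 424.3 ± 31.0 and 419.5 ± 38.7 CPM. The upper ends of the intervals for Calr and Pdia3 are below the lower end of 0.25 for Hspa5.

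Per kilobase of exon, Pdia3 was the most abundant of the 35 in control libraries at 323.3 CPM per kilobase, followed by Calr at 253.0, Hspa5 at 236.9, Hsp90b1 at 229.3 and Pdia6 at 224.2. In knockout libraries Hspa5 reached 303.2 CPM per kilobase, next to Pdia3 at 329.1. The summed level of the 15 chaperones was 5508.2, 5449.7 and 5476.3 CPM in control and 5956.4, 5983.7 and 6064.8 CPM in knockout libraries, which is 9.56% more. Without Hspa5 the sums were 4576.9, 4581.3 and 4608.2 CPM against 4830.1, 4848.8 and 4911.8 CPM, which is 5.99% more. In both sums all 3 knockout libraries were above all 3 control libraries, and the same held for the summed cytosolic heat shock genes given below. The summed plasma, B cell and myeloid markers given above were also higher in the knockout libraries.

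**Figure D3:**
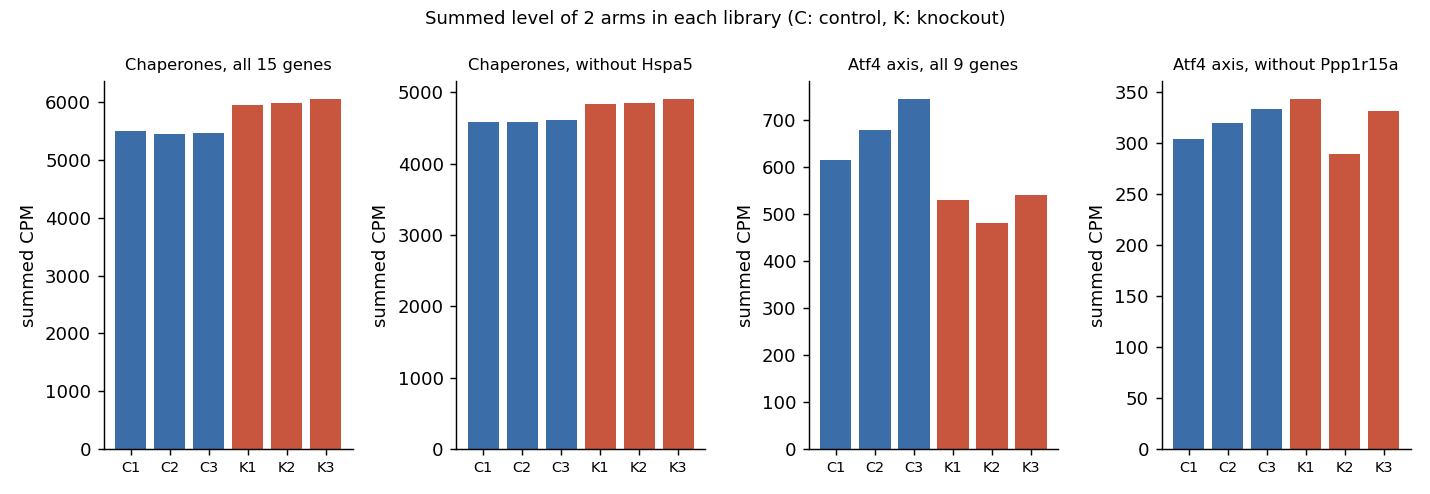
Summed CPM in each library (bars; C1 to C3 control, K1 to K3 knockout) of the chaperones and of the Atf4 axis, with all genes and without the gene of each that passed the test. The chaperone sums of 5956.4 to 6064.8 CPM in knockout libraries stand above the 5449.7 to 5508.2 CPM of control libraries, and the Atf4 axis sums overlap once Ppp1r15a is left out.

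The chaperones with an ERSE in the window had nearly the same median difference as those without one. The 7 with a match had a median log2 difference of 0.12, with 5 above zero, and the 6 with a window and no match had a median of 0.11, with 4 above zero. Hspa5, Hsp90b1, Canx, Pdia6 and Creld2 were among the 5 with a match above zero, whereas Calr and Dnajc3, with matches of the same pattern, measured -0.03 and -0.02. Sdf2l1 and Pdia4 had no match in their windows and measured 0.34 and 0.22. Over all 4 arms, the 9 genes with a match had a median of 0.12, with 7 above zero, and the 20 tested genes with a window and no match had a median of 0.04, with 12 above zero. Neither difference between the sets was tested.

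No gene of ER-associated degradation passed the test, and the groups overlapped for all 7. Derl2, a derlin of the channel that returns proteins to the cytosol, measured 49.4, 67.4 and 69.0 CPM in control and 85.0, 60.9 and 74.1 CPM in knockout libraries. Control replicate 1 was the lowest and knockout replicate 1 the highest, and the log2 difference was 0.25 (limma adjusted p = 0.661). Edem1, a mannosidase-like lectin that marks glycoproteins for disposal, measured 37.1, 64.0 and 48.6 CPM against 64.8, 48.2 and 59.9 CPM. Its groups were fully interleaved (log2 difference 0.23, limma adjusted p = 0.74). Derl1 measured 50.3, 54.6 and 58.4 CPM against 55.7, 60.4 and 57.9 CPM, a log2 difference of 0.09 (limma adjusted p = 0.855).

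Derl3, the derlin most tied to secretory cells, was rare. It had 48, 22 and 80 reads in control libraries and 122, 50 and 126 reads in knockout libraries, or 1.19, 0.597 and 1.83 CPM against 3.30, 1.16 and 2.88 CPM. Knockout replicate 2 lay within the control range, and the log2 difference of 1.02 had a 95% interval from -0.70 to 2.74 (limma adjusted p = 0.684). The 3 remaining genes, Herpud1, the ubiquitin ligase Syvn1 and its partner Sel1l, had log2 differences of 0.02 to 0.06. Herpud1, with the ERSE-II in its promoter, measured 154.9 ± 7.23 and 157.1 ± 3.72 CPM (SD, n = 3 each).

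None of the sensor genes passed the test. Ern1, which encodes Ire1, measured 68.2, 70.3 and 45.6 CPM in control and 44.2, 34.8 and 46.4 CPM in knockout libraries. Control replicate 3 lay within the knockout range, while the other control libraries were above it, and the log2 difference was -0.54 (SE 0.20, limma adjusted p = 0.381). Its nuclease substrate Xbp1 measured 174.9, 191.9 and 213.9 CPM in control and 225.9, 250.1 and 214.5 CPM in knockout libraries. The groups met at 213.9 and 214.5 CPM, and the log2 difference was 0.25 (SE 0.10, limma adjusted p = 0.421).

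Eif2ak3, which encodes Perk, measured 17.7, 13.0 and 18.4 CPM in control and 19.9, 14.0 and 14.3 CPM in knockout libraries. The groups overlapped, with a log2 difference of -0.03 and a 95% interval from -0.59 to 0.53. Atf6 measured 44.1, 48.3 and 45.9 CPM against 37.1, 60.2 and 40.1 CPM. The knockout libraries fell on both sides of the control range, and the log2 difference was -0.04 with a 95% interval from -0.48 to 0.39. Per kilobase of exon the 3 sensor mRNAs were scarce, at 7.52 (Ern1), 6.36 (Atf6) and 3.39 (Eif2ak3) CPM per kilobase in control libraries, against 81.0 for Xbp1.

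In the Atf4 axis Ppp1r15a, the inducible regulatory subunit that directs protein phosphatase 1 to eIF2-alpha, fell. It measured 310.2, 358.7 and 412.6 CPM in the control libraries and 186.8, 191.6 and 208.6 CPM in the knockout libraries. The control libraries differed among themselves by more than the knockout libraries did, but the lowest control library was well above the highest knockout library. Its level fell by 45.7% (360.5 ± 51.2 against 195.7 ± 11.5 CPM, SD, n = 3 each). The log2 difference was -0.87 (SE 0.11, 95% interval -1.11 to -0.63, limma adjusted p = 0.0036). The gene (NCBI Gene 17872) lies on chromosome 7 from 45522917 to 45526268 in GRCm38.p6, on the minus strand, so its printed promoter lies at the higher coordinates.

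The fall of Ppp1r15a passed with each of the 6 libraries left out in turn (adjusted p = 0.00148 to 0.0388), and missed the threshold only when the variance was modelled without a trend (0.124). Tulp2, which overlaps the gene by 730 bases, was below 1 CPM on average in both groups, at 0.8 and 0.49 CPM. Per kilobase of exon Ppp1r15a was the most abundant gene of its arm in control libraries, at 122.8 CPM per kilobase, and in knockout libraries it was at 66.7.

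Ppp1r15b, the constitutive counterpart of Ppp1r15a, did not pass the test. It measured 58.9, 80.6 and 93.1 CPM in control and 127.2, 81.9 and 100.9 CPM in knockout libraries. The groups overlapped, and the log2 difference was 0.42 (SE 0.20, 95% interval -0.03 to 0.86, limma adjusted p = 0.507). Per kilobase of exon it was at 13.9 CPM in control and 18.5 CPM in knockout libraries, below Ppp1r15a in both.

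Atf4, the transcription factor whose translation rises when eIF2-alpha is phosphorylated, measured 123.3, 123.0 and 118.9 CPM in control and 88.3, 97.2 and 107.2 CPM in knockout libraries. Each knockout library was below each control library, but the log2 difference of -0.32 (SE 0.11, 95% interval -0.57 to -0.08) did not pass over all genes (limma adjusted p = 0.329). Ddit3, which encodes the pro-apoptotic factor Chop, measured 26.5, 28.1 and 30.7 CPM against 24.3, 24.3 and 17.9 CPM. It was also lower in each knockout library, by a log2 difference of -0.37 (SE 0.20) that did not pass (limma adjusted p = 0.559). Nupr1, a small stress-induced nuclear protein, was higher in each knockout library, at 15.6, 9.96 and 11.8 CPM against 15.9, 18.5 and 16.7 CPM. Control replicate 1 and knockout replicate 1 were almost level, and the log2 difference was 0.47 (SE 0.25, limma adjusted p = 0.557).

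The other genes of this arm overlapped between groups. Asns, asparagine synthetase, measured 68.0 ± 2.96 CPM in control and 66.9 ± 8.53 CPM in knockout libraries (SD, n = 3 each). Trib3, a pseudokinase that restrains Atf4, ranged from 7.79 to 11.2 CPM in control and from 7.66 to 17.2 CPM in knockout libraries. Atf5 was rare in both groups (0.815 ± 0.315 and 1.11 ± 0.688 CPM, SD, n = 3 each), and Chac1, an Atf4 target that degrades glutathione, had the 9 reads already given. Summed over the arm, the level was 614.3, 678.4 and 745.9 CPM in control and 530.2, 480.1 and 539.5 CPM in knockout libraries, a difference of the means of -24.0%. Without Ppp1r15a the sums overlapped, at 304.1, 319.7 and 333.3 CPM against 343.3, 288.5 and 330.8 CPM.

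**Figure D4:**
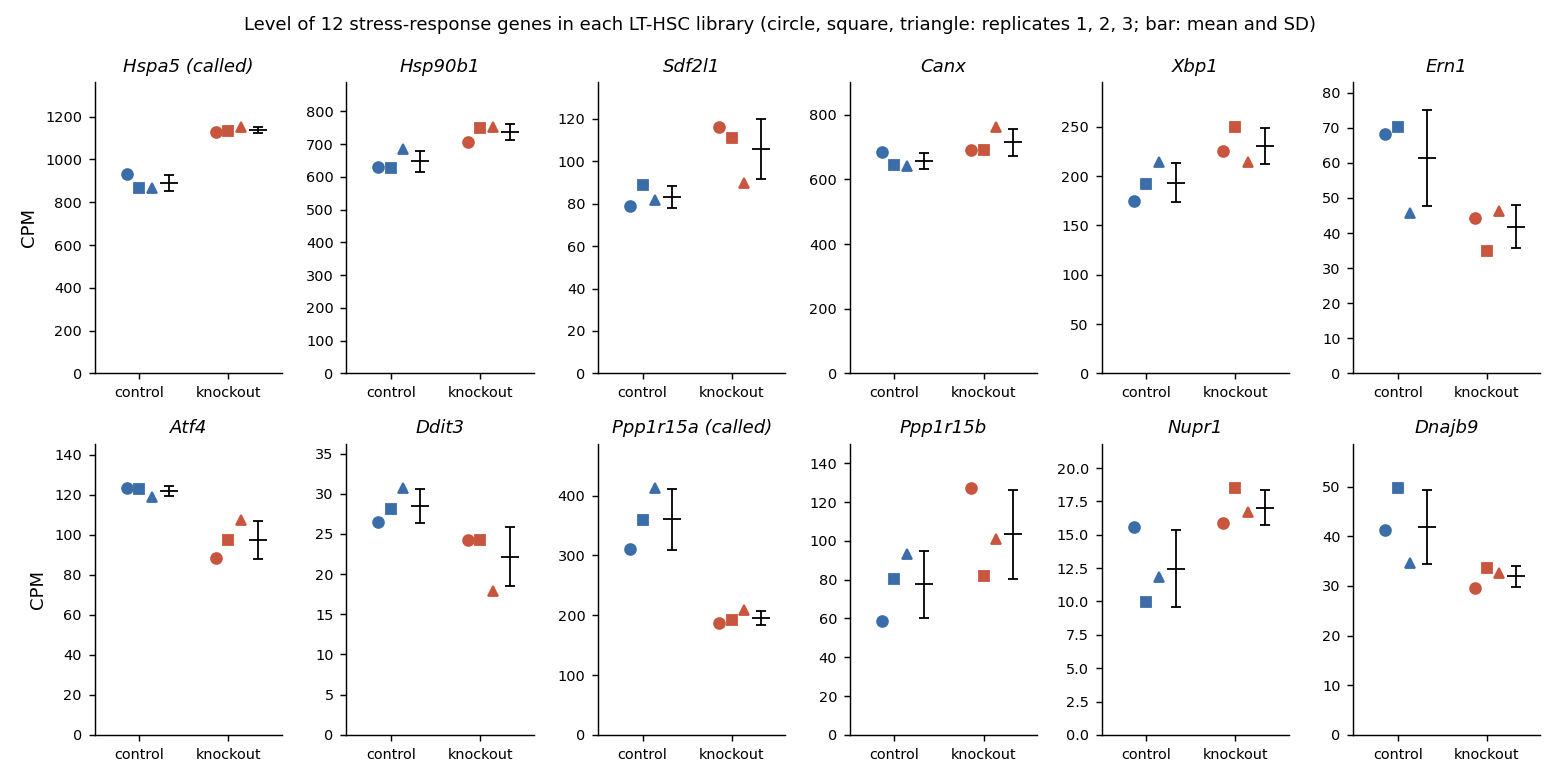
CPM of 12 member genes in each library, from 0 (control blue, knockout red; circle, square and triangle are replicates 1, 2 and 3; black bar, mean and SD). The red points of Hspa5 lie at 1126.2 to 1153.0 CPM above blue points of 868.1 to 931.3 CPM, and those of Ppp1r15a lie at 186.8 to 208.6 CPM below blue points of 310.2 to 412.6 CPM.

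The rest of the pathway was read from 6 further lists, and no gene of them passed the test with limma, while of the 108 tested 4 were higher (3.70%) and 8 lower (7.41%) at an unadjusted p under 0.05, against 5.58% and 4.72% of all tested genes. Of 27 tested ER folding and glycan-quality genes, 16 were above zero (median log2 difference 0.07). Sil1, the nucleotide exchange factor of BiP, measured 104.4, 116.0 and 104.4 CPM in control and 87.7, 87.2 and 91.8 CPM in knockout libraries, lower in each of them (log2 difference -0.28, limma adjusted p = 0.391). Sdf2, the paralogue of Sdf2l1, measured 76.9, 75.1 and 86.7 CPM against 102.0, 94.3 and 95.9 CPM, higher in each (log2 difference 0.29, limma adjusted p = 0.409). Of 22 genes of the translocon, signal peptidase and oligosaccharyltransferase, 12 were above zero (median 0.00), with Spcs3 at 0.20 and Stt3a at -0.24. Of 22 other degradation genes, 11 were above zero (median 0.01), with Herpud2 at -0.42 and Faf2 at -0.18. Of 8 ER membrane transcription factors and their proteases, 6 were tested. All 6 were above zero (median 0.24), with Mbtps1, which cleaves Atf6, at 0.14 and Creb3 at 0.19, and adjusted p-values of 0.621 or more. The median deviation of the 6 by library overlapped between groups (-0.2, 0.017 and -0.027 in control and 0.273, -0.018 and 0.222 in knockout libraries). Creb3l3 and Creb3l4 were too rare to be tested and went opposite ways. Creb3l3 measured 2.1, 0.787 and 1.31 CPM in control and 0, 0.443 and 0 CPM in knockout libraries. Creb3l4 measured 0, 0 and 0.298 CPM against 1.14, 0.722 and 0.549 CPM.

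Of 13 genes for eIF2 kinases, eIF2 and eIF2B, 8 were above zero (median 0.06). Eif2ak4, the amino acid sensing kinase Gcn2, measured 65.5, 61.7 and 59.3 CPM in control and 38.0, 52.0 and 54.2 CPM in knockout libraries. Each knockout library was lower, but the log2 difference of -0.39 (SE 0.17) did not pass (limma adjusted p = 0.45). Eif2b5, the catalytic subunit of the exchange factor, had a log2 difference of 0.29 (limma adjusted p = 0.498).

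Of 18 tested Atf4 targets and partners outside the 35, 9 were above and 9 below zero (median 0.01). Vldlr, a lipoprotein receptor, measured 39.9, 52.8 and 57.2 CPM in control and 81.4, 89.4 and 94.2 CPM in knockout libraries. Its groups were well apart, and the log2 difference of 0.83 (SE 0.16) just missed the threshold (limma adjusted p = 0.0521). Slc3a2, the heavy chain of several amino acid transporters, measured 249.4, 237.6 and 231.8 CPM against 195.3, 190.3 and 201.6 CPM. It was lower in each knockout library, by a log2 difference of -0.29 (SE 0.08, limma adjusted p = 0.208). Cbs, cystathionine beta-synthase, was rare, at 1.39, 2.17 and 2.22 CPM in control and 0 reads in knockout libraries, and it is named after its values were seen. Its control mean of 1.93 CPM was 26.0-fold the level that 3 reads per library would give, but 0 reads do not bound the fold here. Mpo, for example, had 147, 0 and 96 reads in the control libraries, which are portions of 1 pool. Cbs did not pass (limma adjusted p = 0.315).

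Cytosolic heat shock genes were set beside the ER chaperones as the folding response of another compartment. Of 15 tested, 1 rose, Hspa8, the constitutive cytosolic Hsp70, at 735.4, 709.2 and 747.6 CPM in control and 928.8, 968.2 and 977.0 CPM in knockout libraries. Every knockout library was above every control library, as for Hspa5 (log2 difference 0.39, SE 0.05, limma adjusted p = 0.0051). The median of the 15 was 0.14, against 0.12 for the 15 ER chaperones, and the difference between the lists was not tested. Summed over the 16 listed, the level was 4675.7, 4742.6 and 4975.6 CPM in control and 5047.1, 5172.4 and 5181.0 CPM in knockout libraries. Hsph1 and Dnaja1, partners of Hsp70 chaperones in the cytosol, had log2 differences of 0.70 and 0.34 that did not pass (limma adjusted p = 0.157 and 0.144). Hspa8 missed the threshold without knockout replicate 3 and when the variance was modelled without a trend.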

How the data were processed

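RNA-seq of 6 LT-HSC libraries, 3 per genotype, was read from 1 deposited table of log2 values. The deposited log2 values are log2 CPM with 0.5 read added to each gene. The lowest value of each column (0 reads) gave the library size it implies, and with it 100.0% of values came out as whole reads, within 0.01 of a read. The mm10 build and the tools HISAT2, featureCounts, FastQC and limma are named in the submitters' processing notes. The sources used here give no version, strand setting or treatment of multi-mapping reads, so reads of overlapping genes cannot be told apart.

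The 35 members, the other lists and the tests were chosen with earlier results of these data known. NCBI gene IDs were given symbols from reference tables (25275 of 27179 matched). Genes reaching 1 CPM in 3 or more libraries (13018) were tested in limma 3.58.1 under R 4.3.3 (moderated test with a mean-variance trend, two-sided, Benjamini-Hochberg adjustment over all tested genes), after the procedure was tested on simulated data. Means and SDs are over CPM, and the number after ± is the SD. Exon lengths are the union of GENCODE M21 basic exons. Gene positions and promoter sequences are from RefSeq (GRCm38.p6), and windows held for 30 members were searched in Python 3.11.15. Figures were drawn with matplotlib 3.10.9. Values per library are given for members that passed, for the 4 of smallest p in each arm and for Atf4, Ddit3, Xbp1, Ern1, Eif2ak3 and Atf6. In each other list the genes that passed, or else the 2 of smallest p, are named, some by their log2 difference only. Hsph1 and Dnaja1, the 2 heat shock genes of smallest p that did not pass, are named outside this rule. Canx, Pdia4 and Cbs were added after their values were seen. Alternatives were another filter, scaling, variance model or pseudocount, voom (limma's count weights) on the recovered reads, the omission of each library in turn, and a replicate block.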

Additional observations from a re-analysis of the deposited data

How the results depend on the processing

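Over 17 alternatives, 552 of 576 values of the tested members kept their direction and their side of the threshold, 4 no longer passed and 20 changed direction. All 20 were in 9 members that passed in no fit, and 25 of 34 members never changed direction. The cause of each change was not tested. The count of members that rose went from 1 to 0 without a variance trend, and was 0 to 1 when a library was left out (0 without control replicate 2 and without knockout replicate 3), and the count that fell went from 1 to 0 without a variance trend. The cytosolic heat shock count went from 1 to 0 without a variance trend and ranged from 0 to 1 when a library was left out. Among other pathway genes the count higher was 1 (Vldlr) with a 5 CPM filter, with quantile normalization, with the robust fit, with each of the 3 pseudocounts and with voom, and the count lower was 1 (Cbs) without a filter and without a variance trend. Median log2 differences were 0.063 for all members with quantile normalization and -0.032 for the Atf4 axis without a filter and with a 5 CPM filter. With a library left out, medians ranged from 0.061 to 0.116 (all members), 0.081 to 0.150 (chaperones), -0.10 to 0.040 (sensors and Xbp1) and -0.063 to 0.173 (Atf4 axis). With quantile normalization Pdia3 was at -0.011 and P4hb at 0.015. With a library left out, log2 differences ranged from -0.093 to 0.025 (P4hb), -0.14 to 0.07 (Dnajc3), -0.017 to 0.048 (Herpud1), -0.13 to 0.20 (Syvn1), -0.19 to 0.06 (Eif2ak3), -0.256 to 0.093 (Atf6), -0.20 to 0.88 (Atf5) and -0.103 to 0.077 (Asns).

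Same-numbered libraries did not deviate together (correlations of -0.01, -0.02 and 0.02 across genes), so the numbers only name portions. With the replicate block 1 member rose and 1 fell, Hspa5 at 0.36 (limma adjusted p = 0.0422) and Ppp1r15a at -0.87 (limma adjusted p = 0.00653). At 36747729 reads or more per library, rare members such as Derl3, Atf5 and Chac1 still had few reads. Read totals do not give the precision of the other members, because libraries of 1 pool differed by more than read counting gives. Eif2ak3, with 481 to 803 reads per library, had an SE of 0.25. With 1 pool of mice per genotype, differences between pools and between genotypes cannot be told apart.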

Other observations

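Outside the 35 genes, 10 tested genes held an ERSE in the 250 bases before the start. Their log2 differences, knockout minus control, had a median of 0.06 with 6 above zero, and none passed the test with limma. Those known for work in the ER were Ero1b, an oxidase that recharges disulfide isomerases, at 0.24, and Alg12, a mannosyltransferase of glycan assembly, at 0.33. Adcy3 was at 0.62, Hnrnpa3 at 0.12, Zfp57 at 0.07 and Pan2 at 0.04. Acacb was at -0.66, Xlr3a at -0.87, Xlr3b at -0.95 and Tdrd9 at -3.29.

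Across the 34 tested members the libraries of a genotype were not alike in how often they held the extreme value. Knockout replicate 1 was the highest of the 6 libraries for 13 members and the lowest for 7, and knockout replicate 2 was the highest for 9 and the lowest for 6. Knockout replicate 3 was the highest for 5 and the lowest for 2. Control replicates 1, 2 and 3 were the lowest for 8, 8 and 3 members and the highest for 1, 4 and 2. Such counts were not made over all tested genes, so whether they are particular to the members was not tested.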
